A study of Homo sapiens with 8 samples.

Results

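Long non-coding RNAs (lncRNAs) expressed in OVISE cells were compared between cells with and without SYK and between cells with and without epidermal growth factor (EGF). OVISE is a cell line grown from a human clear cell carcinoma of the ovary, SYK is a non-receptor tyrosine kinase, and EGF is a ligand of the receptor tyrosine kinase EGFR. Of 27757 loci in the table, 3073 carried non-coding RefSeq accessions and a lncRNA symbol, that is, one that starts with LINC, ends in -AS1, -AS2, -DT or -IT1, or is MALAT1, NEAT1 or CERNA2. The members were chosen by their measured level: 362 of these 3073 loci (11.8%) reached 1 FPKM (fragments per kilobase of transcript, scaled to the mapped fragments) in at least 2 of the 8 libraries, and the other 2711 did not. The 362 are 2.99% of the 12112 loci that passed the same filter. They held 188 of 1176 candidates named -AS1, 95 of 1462 named LINC, 69 of 282 named -DT, 7 of 97 named -AS2, 0 of 53 named -IT1, and MALAT1, NEAT1 and CERNA2. GAS5 and H19 were listed merged with a small RNA and were no members by that rule. GAS5, a host of small nucleolar RNAs, stood at 449 to 550 FPKM over the 8 libraries, and H19, an imprinted transcript, at 0.425 to 2.32 FPKM.

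Total RNA was sequenced from 4 groups of 2 libraries. SYK-KO EGF and SYK-WT EGF cells had received EGF at 50 ng/ml for 24 h, and SYK-KO and SYK-WT cells were untreated. The knockout was made with a Cas9 nickase and a pair of guides to exon 2 of SYK, after which cells were selected with puromycin and grown out from single cells. The labels give neither how many knockout clones were used, nor whether SYK-WT is the parental line or a clone, nor whether both libraries of a group are cultures of their own. Differences between genotypes and differences between clones therefore cannot be told apart, and the p-values cover no more than the variation from library to library, which may be technical. In such bulk RNA, fewer cells of a kind and less RNA per cell cannot be told apart either. SYK itself was listed at 2.80 and 3.16 FPKM in SYK-KO EGF, 3.88 and 3.62 in SYK-WT EGF, 3.11 and 3.43 in SYK-KO, and 4.91 and 5.30 in SYK-WT. A frameshift in exon 2 can leave the transcript in place, so these levels do not check the knockout, which the labels report as verified by immunoblot. Fragments per library were estimated from the steps between low values at 22800000 to 26900000, provided that the scaling used the fragments of the same library. At that depth 1 FPKM of a 1 kb transcript is 22.8 to 26.9 fragments. The epithelial markers KRT8, KRT18, KRT19, EPCAM and CDH1 were at 30.7 FPKM or more in every library, while 12 markers of blood, fibroblast and endothelial cells did not exceed 0.519 FPKM.

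An lncRNA is a transcript without a long open reading frame. Symbols ending in -AS name transcripts that run antisense to a neighbouring gene, -DT names divergent transcripts that start next to a gene's promoter and run the other way, and LINC names intergenic transcripts. Nuclear lncRNAs include MALAT1, found in nuclear speckles, and NEAT1, the scaffold of paraspeckles, while others such as GAS5 are hosts from whose introns small nucleolar RNAs are cut. The direction in which an RNA was read is not given in the sources used here. Without it, reads from a lncRNA and from a gene that overlaps it on the other strand cannot be told apart. That can apply to the 161 members whose listed interval was shared with another tested locus. The other 201 shared an interval with no tested locus. A shared interval does not by itself show that the transcripts overlap.

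Expression of the members was low and uneven. Their mean over the 8 libraries had a median of 1.92 FPKM with quartiles of 1.14 and 4.45, against a median of 9.26 FPKM over all 12112 tested loci. Only 29 members averaged 10 FPKM or more, and 208 were at 1 FPKM or more in all 8 libraries. Just inside the limit were LINC03015, UCKL1-AS1 and LINC01320, whose second-highest values were 1, 1.03 and 1.04 FPKM, and just outside were LINC00534, IRAG1-AS1 and FBXW7-AS1, with 0.993, 0.994 and 0.998 FPKM. Of the 362, 10 reached 1 FPKM in a single group only, and so passed through the group where they were high. They were 1 in SYK-KO EGF, 3 in SYK-WT EGF, 1 in SYK-KO and 5 in SYK-WT. Between 262 and 272 members were at 1 FPKM or more in the SYK-KO EGF libraries, 279 and 290 in SYK-WT EGF, 295 and 297 in SYK-KO, and 305 and 311 in SYK-WT.

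Other than for promoter windows, coordinates given after a member are those of its listed interval in hg19. Such an interval can be shared by several loci and span more than the lncRNA. The most abundant member was ALDH1A3-AS1 (chr15:101419897-101610317). It lies in the interval of ALDH1A3, which encodes an enzyme that makes retinoic acid. Its FPKM values were 201 and 181 in SYK-KO EGF, 179 and 168 in SYK-WT EGF, 192 and 169 in SYK-KO, and 162 and 166 in SYK-WT. None of its comparisons passed the test, and ALDH1A3 itself ranged over 260 to 306 FPKM. LINC02582 (chr18:70992176-71017124), an intergenic transcript, followed with 208 and 220 FPKM in SYK-KO EGF, 121 and 130 in SYK-WT EGF, 190 and 192 in SYK-KO, and 118 and 117 in SYK-WT. All 4 SYK-KO libraries lay above all 4 SYK-WT libraries. Its log2 fold change in SYK-KO against SYK-WT cells was 0.77 with EGF (SE 0.0615, limma, Benjamini-Hochberg adjusted p = 0.00012) and 0.69 untreated (SE 0.0615, adjusted p = 0.000182). Fold changes throughout are on the log2(FPKM + 1) scale, which understates the change of low members.

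PCNA-AS1, in the interval of the gene for the DNA sliding clamp PCNA, had 98.3 and 89.5 FPKM in SYK-KO EGF, 84.0 and 93.9 in SYK-WT EGF, 101 and 100 in SYK-KO, and 119 and 138 in SYK-WT. SYK-WT libraries without EGF were the highest. It fell with EGF in SYK-WT cells (log2 fold change -0.53, limma adjusted p = 0.00559), as did PCNA (-0.46, adjusted p = 0.0049). The call of PCNA-AS1 was not kept without each library. SLC44A3-AS1 (chr1:95123089-95285837) had 113 and 122 FPKM in SYK-KO EGF, 59.8 and 65.9 in SYK-WT EGF, 101 and 90.4 in SYK-KO, and 52.6 and 47.5 in SYK-WT. The genotypes did not overlap, with log2 fold changes in SYK-KO against SYK-WT cells of 0.89 with EGF and 0.92 untreated (limma adjusted p = 0.000286 and 0.000247). The other 6 of the 10 highest members averaged 19.3 to 28.2 FPKM and were PPP1R14B-AS1, LINC00868, EPB41L4A-AS1, FGD5-AS1, LINC01559 and STEAP1B-AS1.

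The response to EGF after 24 h was the first comparison. In SYK-KO cells 12 members rose and 31 fell, in SYK-WT cells 29 rose and 52 fell. Over all 12112 tested loci, 6.67% rose and 5.13% fell in SYK-KO cells, and 14.7% rose and 12.1% fell in SYK-WT cells. As shares of the members these were 3.31% and 8.56% in SYK-KO cells, and 8.01% and 14.4% in SYK-WT cells, so that in both genotypes the share of members that rose lay under that of all loci and the share that fell lay above it. The median log2 fold change of the members was -0.09 in both genotypes, while over all loci it was 0.00 with SYK knocked out and 0.01 in SYK-WT cells. It was nearer 0 in the 208 members at 1 FPKM or more in all 8 libraries, with -0.055 in SYK-KO cells and -0.028 in SYK-WT cells. Of these 208, 4.33% rose and 8.65% fell in SYK-KO cells, and 10.1% rose and 14.4% fell in SYK-WT cells. Without the 10 members that reached 1 FPKM in a single group, 11 rose and 31 fell in SYK-KO cells, and 27 rose and 50 fell in SYK-WT cells. Members that passed the filter only with EGF in both genotypes, such as LINC-PINT, or only untreated, such as LINC01111, stay in these counts. Leaving out the 10 therefore does not remove the effect of the filter. The authors' deposited table, of which no test of EGF in SYK-KO cells was used here, gave a q-value under 0.05 to 37 members for EGF in SYK-WT cells, 11 higher and 26 lower, which is 10.2% of the members against 15.2% of all tested loci.

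All 12 members that rose in SYK-KO cells also rose in SYK-WT cells, where they made up 41.4% of the 29. Of the members that fell, 19 were shared, which is 61.3% of the 31 in SYK-KO cells and 36.5% of the 52 in SYK-WT cells, and none went opposite ways. Over all tested loci the shared rises were 88.7% of those in SYK-KO cells and 40.3% of those in SYK-WT cells, and the shared falls 79.5% and 33.8%. The counts rest on few libraries. In SYK-KO cells 43 members were called, but 10 or 6 when SYK-KO replicate 1 or 2 was left out, 8 or 9 when SYK-KO EGF replicate 1 or 2 was, and 75 without either SYK-WT library. In SYK-WT cells 81 were called, but 32 or 28 without SYK-WT EGF replicate 1 or 2 and 123 without SYK-WT replicate 1. Called whichever library was left out were 3 members in SYK-KO cells (ARHGAP5-AS1, GALNT9-AS1 and LINC01111) and 19 in SYK-WT cells.

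**Figure D1:**
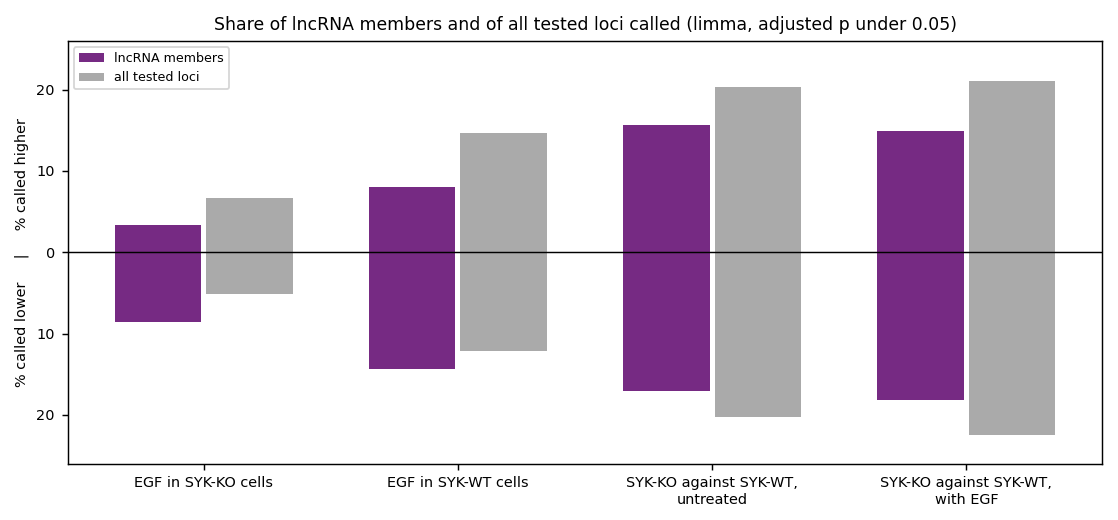
Share of members (purple) and of all tested loci (grey) called higher (above 0) or lower (below 0) in each comparison, by limma with an adjusted p under 0.05. With EGF more members were called lower than higher (8.56% and 3.31% in SYK-KO cells, 14.4% and 8.01% in SYK-WT cells), and fewer of all loci were (5.13% and 6.67%, 12.1% and 14.7%).

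ARHGAP5-AS1 (chr14:32544625-32545905) showed the highest rise in both genotypes on the log2(FPKM + 1) scale. With 0.1 as the added constant its changes of 1.24 in SYK-KO cells and 1.58 in SYK-WT cells were exceeded by LINC-PINT (1.5 and 2.17) and, in SYK-WT cells, by APCDD1L-DT (3.0) and VAC14-AS1 (1.62). It had 7.65 and 5.81 FPKM in SYK-KO EGF, 7.09 and 7.44 in SYK-WT EGF, 3.11 and 2.47 in SYK-KO, and 2.72 and 2.07 in SYK-WT. Every library with EGF lay above every library without. The log2 fold change with EGF was 1.02 in SYK-KO cells (SE 0.145, limma adjusted p = 0.00467) and 1.29 in SYK-WT cells (SE 0.145, adjusted p = 0.000936). Its listed interval is separate from that of ARHGAP5, which encodes a GTPase-activating protein. ARHGAP5 had 14.7 and 14.5 FPKM in SYK-KO EGF, 17.7 and 17.7 in SYK-WT EGF, 7.95 and 7.54 in SYK-KO, and 8.55 and 7.22 in SYK-WT. The gene and its antisense transcript thus rose together, ARHGAP5 by 0.84 in SYK-KO cells and by 1.08 in SYK-WT cells on the log2 scale (limma adjusted p = 0.0011 and 0.000207).

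GALNT9-AS1 (chr12:132680917-132905905) had 9.08 and 8.56 FPKM in SYK-KO EGF, 11.4 and 9.62 in SYK-WT EGF, 4.84 and 4.42 in SYK-KO, and 4.53 and 3.95 in SYK-WT. Groups with and without EGF did not overlap, and the log2 fold change was 0.80 in SYK-KO cells and 1.14 in SYK-WT cells (SE 0.1 each, limma adjusted p = 0.00289 and 0.00037). It shares its interval with GALNT9, a glycosyltransferase gene that rose with it (0.50 and 1.02, limma adjusted p = 0.0108 and 0.000338) and was listed at 4.55 times its mean level. EML2-AS1, in the interval of the microtubule-binding protein gene EML2, had 7.93 and 7.36 FPKM in SYK-KO EGF, 8.91 and 9.07 in SYK-WT EGF, 4.52 and 3.02 in SYK-KO, and 5.09 and 4.01 in SYK-WT. It rose by 0.88 in SYK-KO cells and by 0.86 in SYK-WT cells (limma adjusted p = 0.0105 and 0.00638), and EML2 rose by 0.39 and 0.52. In the authors' own test EML2-AS1 did not pass for EGF in SYK-WT cells (q = 0.734).

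LINC-PINT (chr7:130562321-130598069), a transcript first described as induced by p53, was under 1 FPKM in every library without EGF. Its FPKM values were 2.06 and 1.74 in SYK-KO EGF, 1.79 and 1.60 in SYK-WT EGF, 0.389 and 0.917 in SYK-KO, and 0.258 and 0.345 in SYK-WT. Only its libraries with EGF reached 1 FPKM, so it passed the filter through the condition where it was high. Its EGF tests are therefore no independent support. It shared an interval with no tested locus. The log2 fold change was 0.83 in SYK-KO cells and 1.05 in SYK-WT cells (SE 0.15 each, limma adjusted p = 0.012 and 0.00253), and 1.5 and 2.17 with 0.1 in place of 1 as the added constant.

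The divergent transcripts among the 12 were LHX1-DT and APCDD1L-DT. LHX1-DT (chr17:35218935-35293960) starts beside the homeobox gene LHX1 and had 7.12 and 6.72 FPKM in SYK-KO EGF, 8.16 and 9.82 in SYK-WT EGF, 4.20 and 4.16 in SYK-KO, and 2.99 and 3.45 in SYK-WT. It rose by 0.61 in SYK-KO and by 1.24 in SYK-WT cells on the log2 scale (SE 0.099 each, limma adjusted p = 0.00819 and 0.000252). The difference between these responses was -0.63 (SE 0.14) and did not pass the test (limma adjusted p = 0.313). APCDD1L-DT (chr20:57090435-57194948) had 0.648 and 0.371 FPKM in SYK-KO EGF, 1.57 and 1.69 in SYK-WT EGF, 0.0903 and 0.0887 in SYK-KO, and 0.195 and 0.0582 in SYK-WT. Only its SYK-WT EGF libraries reached 1 FPKM, so it passed the filter through that group. Its test of EGF in SYK-WT cells is therefore no independent support, and neither is the larger change there. Its fitted changes were 0.46 in SYK-KO cells and 1.22 in SYK-WT cells (limma adjusted p = 0.0387 and 0.000473), with a difference of -0.76 (SE 0.163, adjusted p = 0.296). The neighbouring gene APCDD1L rose by 0.56 and 1.43.

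NHSL1-AS1, MAP3K5-AS1, LHFPL3-AS2, FUT8-AS1, LINC00941 and SERTAD4-AS1 complete the 12 members that rose in both genotypes, with log2 fold changes of 0.37 to 0.63 in SYK-KO cells and 0.43 to 0.70 in SYK-WT cells. VAC14-AS1 and AGAP2-AS1 rose in SYK-WT cells, by 0.83 and 0.72 (limma adjusted p = 0.00473 and 0.0084), and changed by 0.34 each in SYK-KO cells without passing the test (adjusted p = 0.161 each). The authors' own test gave q-values of 0.212 for VAC14-AS1 and 0.00428 for AGAP2-AS1 in SYK-WT cells. Of the 8 named risers in SYK-WT cells, 7 kept their call without each library, the exception being AGAP2-AS1. In SYK-KO cells ARHGAP5-AS1 and GALNT9-AS1 did, and the other 6 named risers lost it without at least 1 library, at limma adjusted p between 0.0564 and 0.248. With 0.1 as the added constant LHFPL3-AS2, NHSL1-AS1 and MAP3K5-AS1 lost it in SYK-KO cells too (limma adjusted p = 0.0537, 0.0536 and 0.0729).

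**Figure D2:**
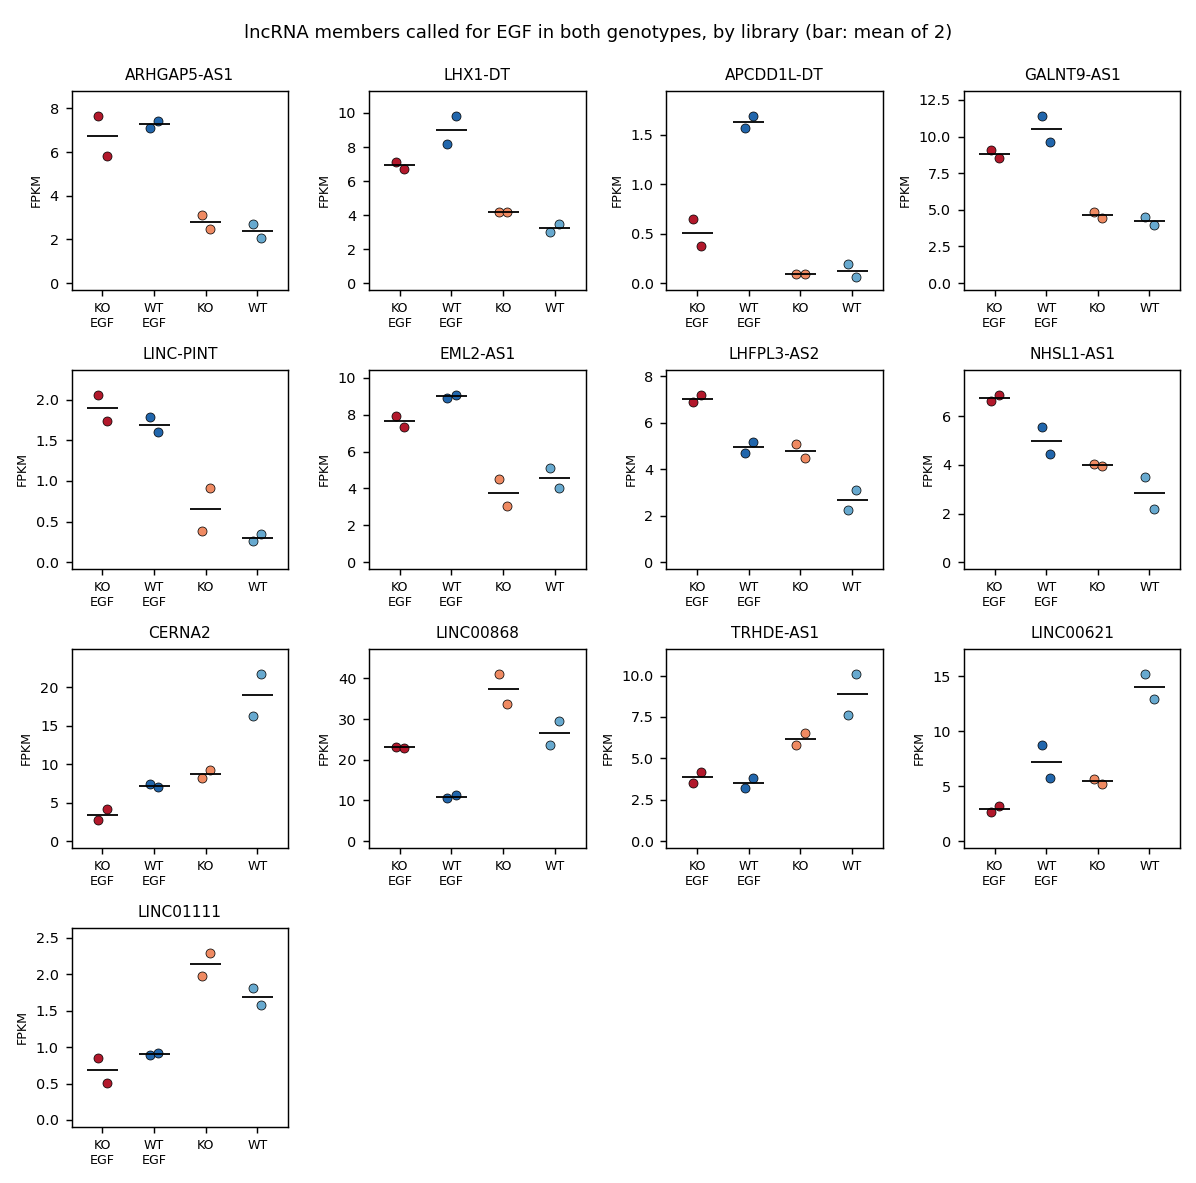
FPKM of members described in the text or among the largest changes called for EGF in both genotypes, 1 panel each, with a point per library (2 per group) and a bar at the mean. The first 8 panels rose with EGF and the last 5 fell. In every panel the EGF libraries of a genotype lie apart from its untreated ones. The rule for naming members required this in at least 1 genotype, so the separation is no result in itself.

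Promoters of members were read from RefSeq (GRCh38.p14), as windows of 300 bases from 250 before to 50 after the start site, and 269 of the 361 member symbols had one. On both strands of each window 7 motifs were searched: the AP-1 motif TGANTCA, the CRE TGACGTCA, the ETS motif CCGGAAGT, the CCAAT box GCCAAT, the antioxidant element TGACNNNGC, the NF-kappaB motif GGGANTTTC and the E-box CACGTG. AP-1 and ETS factors are known endpoints of signalling from EGFR through the ERK pathway, which is why these motifs were included. Matches to different motifs can overlap, most often AP-1 with the antioxidant element, in 154 of 27305 windows. The AP-1 motif was found in 7.43% of member windows, against 7.76% of all 27305 windows, the ETS motif in 6.32% against 4.44%, and the CRE in 3.35% against 1.98%. For the CCAAT box the shares were 18.2% and 15.4%, for the antioxidant element 18.2% and 13.6%, for NF-kappaB 1.12% and 1.3%, and for the E-box 9.29% and 7.43%. Of the 12 members that rose in both genotypes, 7 had a window and 2 of them held an AP-1 match, as did 1 of the 14 windows from the 19 that fell in both. LINC-PINT was one of the 2, and its window (chr7:130913261-130913560, minus strand) is shown with that of ARHGAP5-AS1 (chr14:32076650-32076949, minus strand), which has a CCAAT box and no AP-1 match. The window of SLC38A4-AS1 (chr12:46383426-46383725, plus strand), which fell with EGF in SYK-KO cells, holds an AP-1 match beside an E-box. Capitals mark matches to any of the 7 motifs.
LINC-PINT: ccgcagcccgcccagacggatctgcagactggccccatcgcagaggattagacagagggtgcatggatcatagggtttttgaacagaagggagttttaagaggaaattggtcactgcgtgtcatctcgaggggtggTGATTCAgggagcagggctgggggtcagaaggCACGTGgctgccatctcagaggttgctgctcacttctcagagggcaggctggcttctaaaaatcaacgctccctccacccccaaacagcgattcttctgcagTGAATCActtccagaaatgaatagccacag
ARHGAP5-AS1: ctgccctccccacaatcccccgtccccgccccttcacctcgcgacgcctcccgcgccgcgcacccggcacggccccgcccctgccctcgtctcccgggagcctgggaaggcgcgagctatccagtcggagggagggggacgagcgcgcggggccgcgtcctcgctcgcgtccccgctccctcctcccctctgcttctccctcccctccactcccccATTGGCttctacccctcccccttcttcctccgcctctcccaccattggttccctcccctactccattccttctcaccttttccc
SLC38A4-AS1: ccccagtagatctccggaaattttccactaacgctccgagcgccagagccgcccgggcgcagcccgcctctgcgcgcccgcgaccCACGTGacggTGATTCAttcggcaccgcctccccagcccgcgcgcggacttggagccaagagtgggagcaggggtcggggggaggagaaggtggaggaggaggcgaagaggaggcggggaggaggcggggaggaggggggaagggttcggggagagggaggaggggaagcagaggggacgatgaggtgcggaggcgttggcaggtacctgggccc
In the LINC-PINT window the AP-1 matches begin at bases 137 and 271 and the E-box at base 169. The CCAAT box of ARHGAP5-AS1 begins at base 217 on the opposite strand. The AP-1 match of SLC38A4-AS1 begins at base 96, after an E-box at base 86. An AP-1 match thus stands in the windows of a member that rose and of one that fell. These are matches of letters and do not show binding.

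CERNA2 (chr10:85926984-85931832), also known as the human ovarian cancer-specific transcript HOST2, showed the deepest fall with EGF in both genotypes on the log2(FPKM + 1) scale. Its FPKM values were 2.70 and 4.14 in SYK-KO EGF, 7.38 and 6.96 in SYK-WT EGF, 8.15 and 9.26 in SYK-KO, and 16.2 and 21.7 in SYK-WT. SYK-WT cells without EGF were highest, SYK-KO cells with EGF lowest, and each EGF library lay under both untreated libraries of its genotype. The log2 fold change with EGF was -1.15 in SYK-KO cells and -1.28 in SYK-WT cells (SE 0.175 each, limma adjusted p = 0.00653 and 0.00216). The fall in SYK-KO cells lost its call without at least 1 library, and that in SYK-WT cells held without each. Between genotypes CERNA2 was lower in SYK-KO cells, with log2 fold changes of -0.91 with EGF and -1.03 untreated (limma adjusted p = 0.00496 and 0.00312). The 2 differences thus had the same sign in both backgrounds, and the difference between the EGF responses was 0.12 (SE 0.247, limma adjusted p = 0.908).

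LINC00868 (chr17:74852248-74857918), one of the more abundant intergenic members, fell with EGF too but was higher in SYK-KO cells. It had 23.1 and 23.0 FPKM in SYK-KO EGF, 10.5 and 11.3 in SYK-WT EGF, 41.1 and 33.8 in SYK-KO, and 23.7 and 29.6 in SYK-WT. The log2 fold change with EGF was -0.67 in SYK-KO cells and -1.21 in SYK-WT cells (SE 0.121 each, limma adjusted p = 0.0118 and 0.000578). With EGF, SYK-KO cells had 1.01 more on the log2 scale than SYK-WT cells, and untreated 0.48 more (limma adjusted p = 0.000619 and 0.0163). LINC00621 (chr13:23450531-23490508) had 2.61 and 3.2 FPKM in SYK-KO EGF, 8.76 and 5.71 in SYK-WT EGF, 5.66 and 5.18 in SYK-KO, and 15.2 and 12.9 in SYK-WT, so that the level was lowest with both EGF and the knockout, as for CERNA2. Its fall with EGF was -0.72 in SYK-KO cells and -0.89 in SYK-WT cells (limma adjusted p = 0.0342 and 0.00862).

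TRHDE-AS1, in the interval of the gene for the thyrotropin-releasing hormone-degrading enzyme, had 3.50 and 4.19 FPKM in SYK-KO EGF, 3.19 and 3.80 in SYK-WT EGF, 5.78 and 6.51 in SYK-KO, and 7.63 and 10.1 in SYK-WT. It fell, with log2 fold changes of -0.56 in SYK-KO cells and -1.13 in SYK-WT cells (limma adjusted p = 0.0378 and 0.00136), and TRHDE fell beside it, with -0.61 and -1.09. LINC01111 (chr8:77318889-77436567) had 0.849 and 0.509 FPKM in SYK-KO EGF, 0.886 and 0.912 in SYK-WT EGF, 1.98 and 2.29 in SYK-KO, and 1.81 and 1.57 in SYK-WT. Only its untreated libraries reached 1 FPKM, so it passed the filter through the condition where it was high. Its EGF tests are therefore no independent support. It was the only fall in SYK-KO cells that was called without each library in turn (-0.91, SE 0.116, limma adjusted p = 0.00315; -1.55 with 0.1 as the added constant), and it fell by 0.50 in SYK-WT cells (adjusted p = 0.0176).

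Some falls were called in a single genotype. SLC38A4-AS1 had 2.12 and 2.84 FPKM in SYK-KO EGF, 2.87 and 3.21 in SYK-WT EGF, 4.89 and 4.35 in SYK-KO, and 3.46 and 3.88 in SYK-WT. Its fall was -0.70 in SYK-KO cells and its change -0.21 in SYK-WT cells (limma adjusted p = 0.00933 and 0.221). TENM2-AS1 fell by 0.72 in SYK-KO cells and changed by -0.11 in SYK-WT cells (limma adjusted p = 0.0124 and 0.574). DICER1-AS1, in the interval of the gene for the microRNA-processing enzyme DICER1, fell by 0.75 in SYK-KO cells and changed by -0.36 in SYK-WT cells (limma adjusted p = 0.02 and 0.121), while DICER1 changed by 0.18 and 0.02. With 0.1 as the added constant the fall of DICER1-AS1 was -1.31. In SYK-WT cells IGFL2-AS1 fell, to 1.26 and 1.09 FPKM with EGF against 2.80 and 2.70 untreated (log2 fold change -0.79, limma adjusted p = 0.00232), a call lost with 0.1 as the added constant (-1.17, limma adjusted p = 0.103). LINC01091 and TBX2-AS1 also fell there, with -1.03 and -0.99 (limma adjusted p = 0.0184 and 0.0492), but these values rest on few libraries. Without SYK-WT replicate 2 the changes were -0.64 for LINC01091 and -0.48 for TBX2-AS1, and without replicate 1 that of TBX2-AS1 was -1.5. The call of LINC01091 ended without SYK-WT EGF replicate 1 (-0.78, adjusted p = 0.12), and that of TBX2-AS1 in every fit without a library but the one without SYK-WT replicate 1 (limma adjusted p = 0.0691 to 0.245).

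Whether EGF acted differently in the 2 genotypes was tested as the difference of the responses. No member passed (limma, adjusted p under 0.05), as against 0.00826% of all tested loci, which is 1 locus. At an unadjusted p under 0.05 there were 35 of 362 members and 1070 of 12112 loci. Without SYK-WT replicate 1, 20 members passed, 10 in each direction, and 0 passed in the other 7 fits that left out a library. That an effect was called in a single genotype therefore does not show that the genotypes differed.

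**Figure D3:**
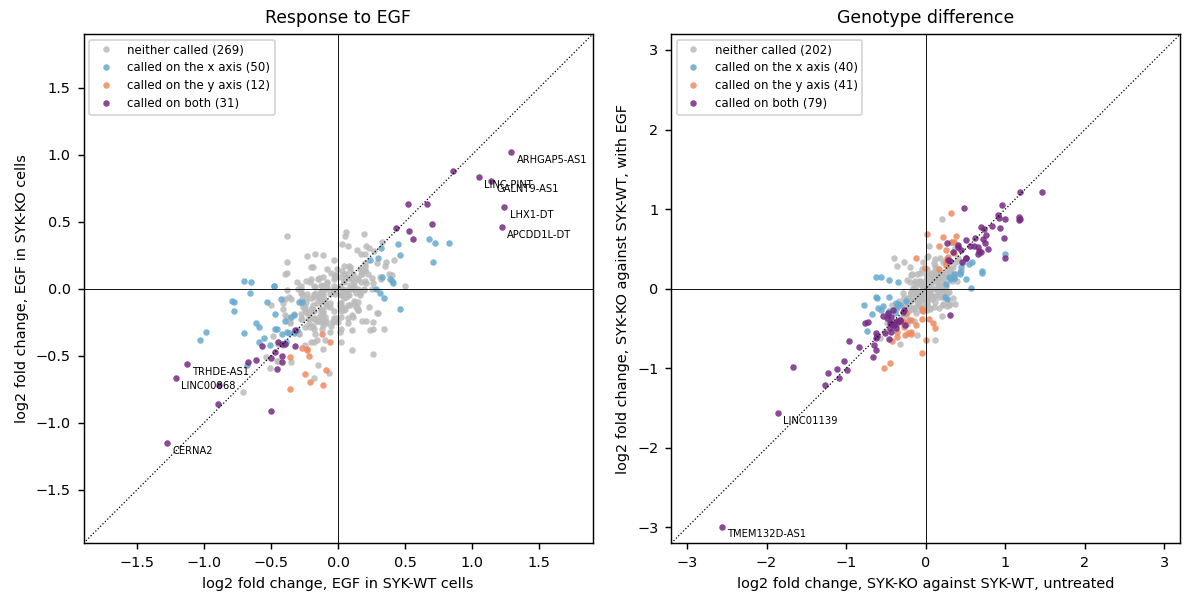
Each point is 1 of the 362 members. Left, log2 fold change with EGF in SYK-KO cells (y axis) against SYK-WT cells (x axis); right, SYK-KO against SYK-WT with EGF (y axis) against untreated (x axis); the dotted line marks equal values and colours give which comparison was called. ARHGAP5-AS1 and CERNA2 stand at the ends on the left (1.02 and -1.15 in SYK-KO cells), TMEM132D-AS1 on the right (-2.99 with EGF, -2.56 untreated).

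Between genotypes more members differed than with EGF. In SYK-KO against SYK-WT cells with EGF, 54 members were higher and 66 lower, against 21.1% and 22.5% of all tested loci, which for the members are 14.9% and 18.2%. Untreated, 57 were higher and 62 lower, or 15.7% and 17.1% of the members, against 20.3% and 20.2% of all loci. Each of these shares of the members lay under that of all loci. Of the members higher in SYK-KO cells, 38 were so in both conditions, which is 70.4% of those with EGF and 66.7% of those untreated. Of those lower, 40 were shared, or 60.6% and 64.5%. Over all tested loci these shares were 73.4% and 76.1% for higher loci, and 69% and 77% for lower ones. LHX1-DT went opposite ways, with -0.33 with EGF and 0.30 untreated (limma adjusted p = 0.029 and 0.0446). The authors' deposited table gave a q-value under 0.05 to 56 members with EGF, 32 higher and 24 lower, and to 46 untreated, 27 higher and 19 lower. These are 15.5% of the members against 24% of all tested loci with EGF, and 12.7% against 21.5% untreated. With EGF 120 members were called, but 72 without SYK-WT EGF replicate 1 or 2 and 79 without SYK-KO EGF replicate 2. Untreated 119 were called, but 68 or 74 without SYK-KO replicate 1 or 2. Called whichever library was left out were 52 members with EGF and 49 untreated.

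A small set of members was far lower in SYK-KO cells. TMEM132D-AS1 (chr12:129556271-130388212) had 0.245 and 0.610 FPKM in SYK-KO EGF, 11.1 and 9.42 in SYK-WT EGF, 0.708 and 1.59 in SYK-KO, and 11.0 and 11.9 in SYK-WT. The log2 fold change in SYK-KO against SYK-WT cells was -2.99 with EGF (SE 0.2, limma adjusted p = 5.61e-05) and -2.56 untreated (SE 0.2, adjusted p = 0.000107). TMEM132D, the gene it is antisense to, was listed at 0 in all 8 libraries, as was TMEM132D-AS2. LINC01139 (chr1:238643684-238649317) was listed at 0 in all 4 SYK-KO libraries, against 2.19 and 1.72 FPKM in SYK-WT EGF and 2.73 and 2.51 in SYK-WT. PYDC2-AS1 (chr3:191143313-191308145) was likewise listed at 0 in the 4 SYK-KO libraries, against 1.11 and 0.951 FPKM in SYK-WT EGF and 1.07 and 0.912 in SYK-WT. Both reached 1 FPKM in SYK-WT libraries alone, and so became members through the genotype where they were high. The same holds for CCDC144NL-AS1, IGFL2-AS1, GATA2-AS1 and LINC01234, and, through SYK-KO libraries, for UPK1A-AS1 and LINC-ROR, so their genotype tests are no independent support. CCDC144NL-AS1 (chr17:20766708-20808543) had 0.0245 and 0.0543 FPKM in SYK-KO EGF, 1.53 and 1.27 in SYK-WT EGF, 0.0424 and 0.0936 in SYK-KO, and 1.59 and 1.57 in SYK-WT. Its log2 fold change was -1.21 with EGF and -1.27 untreated (limma adjusted p = 9.43e-05 and 6.89e-05), and -3.43 and -3.34 with 0.1 as the added constant.

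IGFL2-AS1, GATA2-AS1 and LINC01234 were under 1 FPKM in all 4 SYK-KO libraries and above it in all 4 SYK-WT libraries. IGFL2-AS1 (chr19:46692286-46706319) had 0 and 0.217 FPKM in SYK-KO EGF, 1.26 and 1.09 in SYK-WT EGF, 0.188 and 0.162 in SYK-KO, and 2.80 and 2.70 in SYK-WT, with log2 fold changes of -0.98 and -1.67 (limma adjusted p = 0.000509 and 4.67e-05). LINC01234 (chr12:114182382-114211488) had 0.614 and 0.696 FPKM in SYK-KO EGF, 2.58 and 2.61 in SYK-WT EGF, 0.509 and 0.638 in SYK-KO, and 2.57 and 2.15 in SYK-WT, with log2 fold changes of -1.12 and -1.09 (limma adjusted p = 0.000143 and 0.000158). In both, the genotypes did not overlap. With 0.1 as the added constant the untreated change of IGFL2-AS1 was -3.38, and those of LINC01234 were -1.84 with EGF and -1.87 untreated. GATA2-AS1 (chr3:128198265-128222050) had 0.184 and 0.229 FPKM in SYK-KO EGF, 1.37 and 1.49 in SYK-WT EGF, 0.239 and 0.281 in SYK-KO, and 1.44 and 2.09 in SYK-WT. Its log2 fold change was -1.01 with EGF and -1.12 untreated (limma adjusted p = 0.000587 and 0.000395), and -2.32 and -2.35 with 0.1 as the added constant. GATA2, a transcription factor gene in the same interval, had 2.58 to 3.81 FPKM over the 8 libraries and changed by -0.06 and -0.25 without passing the test (limma adjusted p = 0.627 and 0.0811). The window of GATA2-AS1 (chr3:128488953-128489252, plus strand, GRCh38.p14, RefSeq) holds a CRE match at base 232, in capitals, and is shown because it is one of 2 with a CRE among the 29 windows of the members lower in SYK-KO cells in both conditions.
GATA2-AS1: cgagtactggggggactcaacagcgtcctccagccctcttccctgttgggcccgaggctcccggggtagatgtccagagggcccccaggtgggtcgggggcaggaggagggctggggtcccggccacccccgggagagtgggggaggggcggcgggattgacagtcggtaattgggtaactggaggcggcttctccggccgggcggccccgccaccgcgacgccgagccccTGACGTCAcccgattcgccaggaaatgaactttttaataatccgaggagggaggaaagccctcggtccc
Among the same 29 windows, 10 held a CCAAT box and 10 an antioxidant element, or 34.5% each, against 15.4% and 13.6% of all windows. In the 269 member windows both shares were 18.2%. Among the 25 windows of members higher in SYK-KO cells in both conditions, 3 held each, or 12%. A CCAAT box was also in 5 of 14 windows (35.7%) of members that fell with EGF in both genotypes, and in 2 of 7 (28.6%) of those that rose. For the antioxidant element these were 1 of 14 and 0 of 7. Differences between these shares were not tested. The median GC content was 62% in the 29 windows, 54.3% in the 25, 64.7% in the 269 member windows and 58.3% in all 27305 windows.

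**Figure D4:**
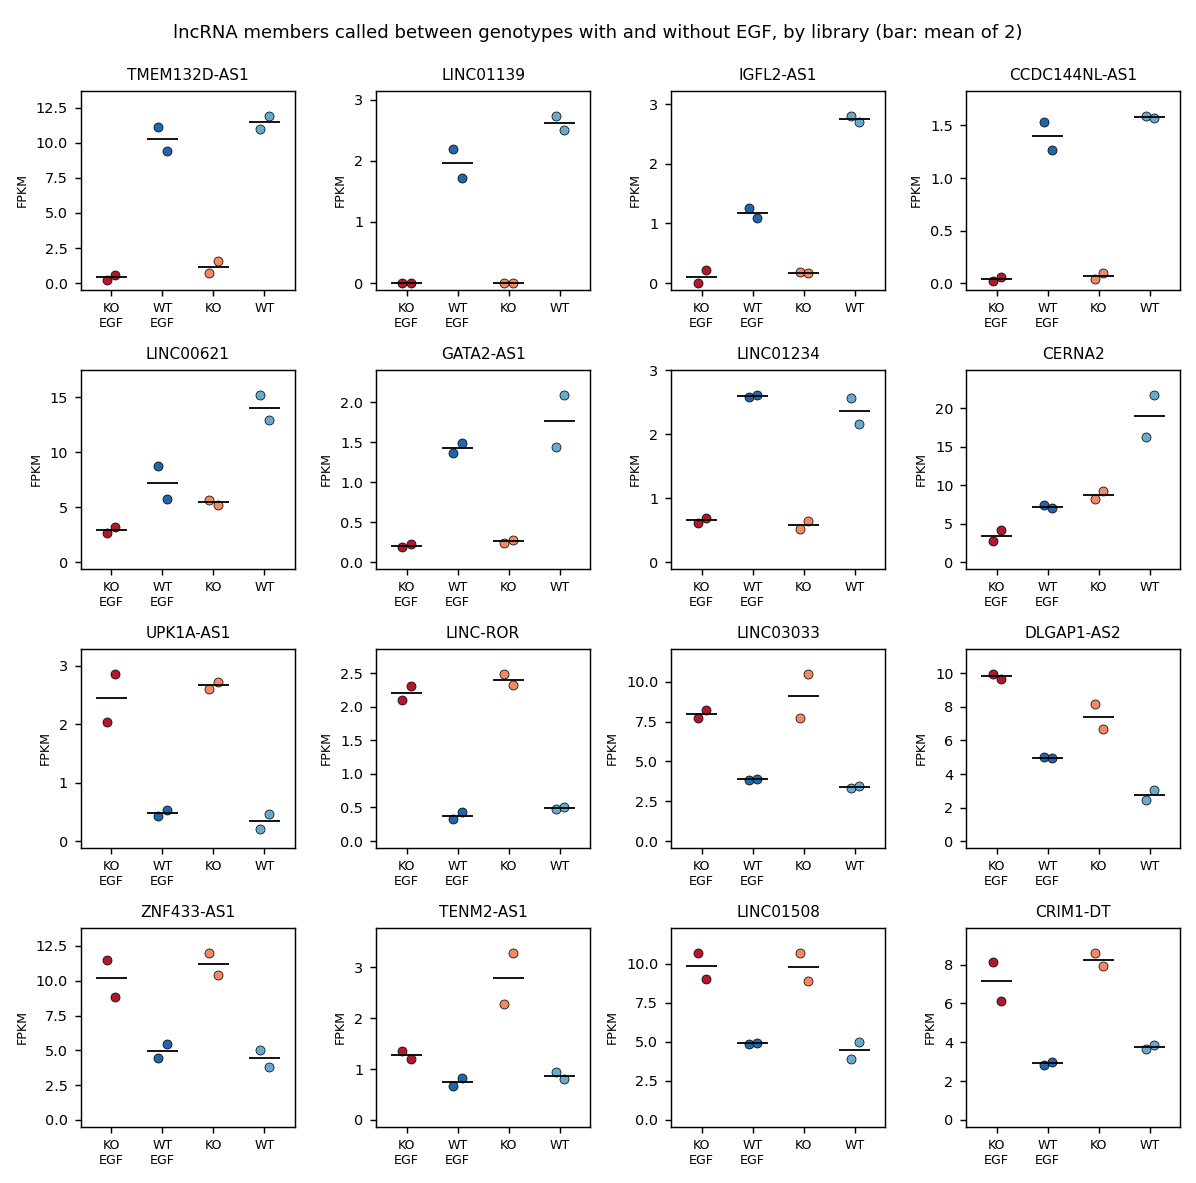
FPKM of 16 named members called between genotypes both with EGF and untreated, 1 panel each, with a point per library (2 per group) and a bar at the mean. The first 8 panels were lower in SYK-KO cells, LINC01139 being listed at 0 in all 4 SYK-KO libraries, and the last 8 were higher.

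Among members higher in SYK-KO cells, UPK1A-AS1 (chr19:36157418-36169387) had 2.04 and 2.86 FPKM in SYK-KO EGF, 0.430 and 0.526 in SYK-WT EGF, 2.61 and 2.73 in SYK-KO, and 0.214 and 0.466 in SYK-WT. Its log2 fold change in SYK-KO against SYK-WT cells was 1.21 with EGF and 1.46 untreated (SE 0.137 each, limma adjusted p = 0.000501 and 0.000234). UPK1A, the uroplakin gene that shares its interval, was also higher in SYK-KO cells, by 0.79 and 0.85. LINC-ROR (chr18:54721804-54739350), described as a regulator of reprogramming in pluripotent stem cells, had 2.10 and 2.31 FPKM in SYK-KO EGF, 0.327 and 0.433 in SYK-WT EGF, 2.49 and 2.32 in SYK-KO, and 0.482 and 0.511 in SYK-WT. It shared its interval with no tested locus and differed by 1.21 with EGF and 1.19 untreated (SE 0.0865 each, limma adjusted p = 7.25e-05 and 7.68e-05). In both members the SYK-KO libraries stood above 2 FPKM and the SYK-WT libraries under 1. With 0.1 as the added constant the changes were 2.13 and 2.71 for UPK1A-AS1, and 2.27 and 2.07 for LINC-ROR.

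LINC03033 (chr14:62022990-62121431) had 7.74 and 8.21 FPKM in SYK-KO EGF, 3.85 and 3.93 in SYK-WT EGF, 7.73 and 10.5 in SYK-KO, and 3.35 and 3.46 in SYK-WT, with log2 fold changes of 0.88 and 1.19 (limma adjusted p = 0.00125 and 0.000353). DLGAP1-AS2 (chr18:3496030-4455266) had 9.97 and 9.69 FPKM in SYK-KO EGF, 5.03 and 4.93 in SYK-WT EGF, 8.17 and 6.69 in SYK-KO, and 2.46 and 3.02 in SYK-WT. It was higher in SYK-KO cells by 0.86 and 1.17 (limma adjusted p = 0.00076 and 0.000199) and also rose with EGF in SYK-WT cells (0.68, adjusted p = 0.00375). DLGAP1, which shares the interval of DLGAP1-AS2, did not exceed 0.18 FPKM. ZNF433-AS1 had 11.5 and 8.87 FPKM in SYK-KO EGF, 4.44 and 5.47 in SYK-WT EGF, 12.0 and 10.4 in SYK-KO, and 5.06 and 3.83 in SYK-WT. It differed by 0.90 and 1.17 (limma adjusted p = 0.00305 and 0.00106), and the zinc finger gene ZNF433 by 0.38 and 0.29. CRIM1-DT (chr2:36581892-36582713), divergent to CRIM1, had 8.15 and 6.15 FPKM in SYK-KO EGF, 2.82 and 3.0 in SYK-WT EGF, 8.6 and 7.92 in SYK-KO, and 3.65 and 3.85 in SYK-WT. It was higher by 1.05 with EGF and 0.96 untreated (limma adjusted p = 0.000468 and 0.000725), while CRIM1 was higher by 0.38 untreated (adjusted p = 0.00667) and changed by 0.01 with EGF (adjusted p = 0.91).

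LINC01508, FOXN3-AS1 and TENM2-AS1 were also higher in SYK-KO cells in both conditions, with log2 fold changes of 0.39 to 0.93 with EGF and 0.91 to 1.0 untreated. SMAD1-AS1 was higher with EGF (0.95, limma adjusted p = 0.00171), as was SMAD1, a mediator of BMP signalling in the same interval (0.82, adjusted p = 0.000931). The untreated change of SMAD1-AS1 (0.32) missed the threshold (limma adjusted p = 0.102). LINC02328 was higher untreated (0.99, adjusted p = 0.0103), a call lost without at least 1 library (limma adjusted p = 0.0732), and ZNF341-AS1 was lower with EGF (-1.0, adjusted p = 0.0171), lost at adjusted p of 0.0559 to 0.0929. The other members among the 8 largest changes in each direction of both genotype comparisons kept their calls without each library, while TENM2-AS1 with EGF, whose change was smaller, did not. With 0.1 as the added constant the changes were 1.49 for FOXN3-AS1, 1.6 for SMAD1-AS1 and -1.53 for ZNF341-AS1 with EGF, and 1.54 for TENM2-AS1 and 1.61 for LINC02328 untreated. In the authors' own test with EGF, q-values were 0.0938 for FOXN3-AS1, 0.0921 for SMAD1-AS1, 0.57 for ZNF341-AS1 and 0.429 for TENM2-AS1. Untreated they were 0.191 for FOXN3-AS1, 0.0167 for TENM2-AS1 and 0.00355 for LINC02328. For LINC01508 the q-value was 0.000583 in both conditions.

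Counts were also taken by the kind of name. Of 95 LINC members, 23 were higher and 11 lower in SYK-KO cells with EGF, and 21 were higher and 12 lower untreated. Of 188 -AS1 members, 20 were higher and 45 lower with EGF, and 24 were higher and 41 lower untreated. The median log2 fold changes were 0.12 in both conditions for LINC, against -0.11 with EGF and -0.06 untreated for -AS1. They were also taken by shared interval. Of the 161 members that shared an interval with a tested locus, 18 were higher and 39 lower in each condition, while of the 201 that shared none, 36 were higher and 27 lower with EGF, and 39 were higher and 23 lower untreated. Over all tested loci 21.1% were higher and 22.5% lower with EGF, and 20.3% and 20.2% untreated, and neither split of the members was tested as a difference.

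Tested loci that shared a member's interval, here called partners, were usually the more abundant of a pair. Of the 161, 155 had a partner that was no lncRNA member, and the partner was more abundant by a median of 5.95 times. It exceeded the lncRNA by more than 10 times in 50 pairs and was the lower of the pair in 20. Among members called in SYK-KO against SYK-WT cells with EGF, the partner was called in the same direction in 30 of 54, in the opposite direction in 3 and not called in 21. Untreated, these were 27, 1 and 25 of 53. For comparison, 21.1% of all tested loci were higher and 22.5% lower with EGF, and 20.3% and 20.2% untreated. For EGF the partner went the same way in 7 of 15 in SYK-KO cells and in 14 of 29 in SYK-WT cells, with 0 and 1 opposite. The shares of all tested loci were 6.67% up and 5.13% down in SYK-KO cells, and 14.7% and 12.1% in SYK-WT cells. Whether partners of called members were called more often than other loci was not tested.

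**Figure D5:**
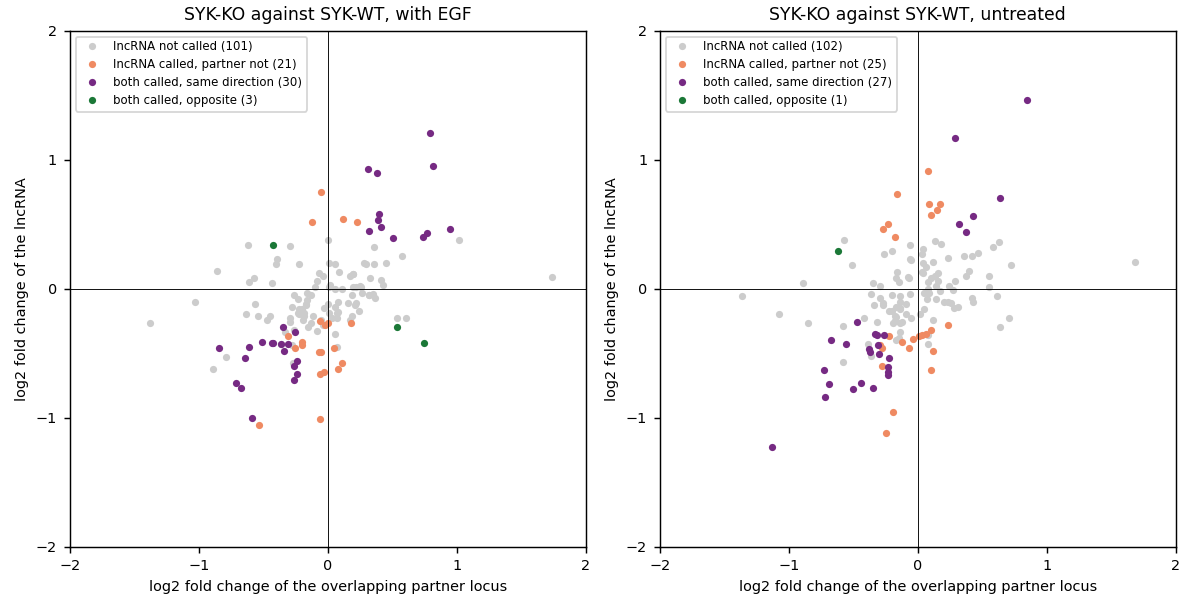
Log2 fold change of each lncRNA (y axis) against that of the tested locus that shares its interval (x axis), for SYK-KO against SYK-WT cells with EGF (left) and untreated (right), for 155 pairs. Of the called lncRNAs, 30 with EGF and 27 untreated had a partner called in the same direction, and 3 and 1 had a partner called in the opposite direction. For comparison, 21.1% of all tested loci were higher and 22.5% lower with EGF, and 20.3% and 20.2% untreated.

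Pairs that went opposite ways within a shared interval are named for that reason, after their values were seen. NIFK-AS1 was higher in SYK-KO cells with EGF (0.34, limma adjusted p = 0.0431), while NIFK, which encodes a nucleolar partner of Ki-67, was lower (-0.42, adjusted p = 0.0354). MYLK-AS1 was lower (-0.42, limma adjusted p = 0.0189), while MYLK, the myosin light chain kinase gene, was higher (0.75, adjusted p = 0.0033). RCAN2-DT was lower (-0.30, limma adjusted p = 0.0188) and RCAN2, a regulator of calcineurin, higher (0.54, adjusted p = 0.0144). CLN8-AS1 was higher untreated (0.29, limma adjusted p = 0.0202) and CLN8 lower (-0.62, adjusted p = 0.00472). With EGF in SYK-WT cells NCK1-DT fell by 0.38 (limma adjusted p = 0.029), while SLC35G2, listed in its interval, rose by 0.61 (adjusted p = 0.00616). SLC44A3-AS1 and STEAP1B-AS1 went opposite to their named genes with EGF in SYK-WT cells though their intervals are separate: SLC44A3-AS1 rose by 0.32 and SLC44A3 fell by 0.49, STEAP1B-AS1 fell by 0.32 and STEAP1B rose by 0.87 (limma adjusted p = 0.0314, 0.00862, 0.00801 and 0.0043). Between genotypes NUTM2A-AS1 was lower untreated (-0.33) and NUTM2A higher (0.37), and SOCS3-DT was higher with EGF (0.61) and SOCS3 lower (-0.35), also in separate intervals (limma adjusted p = 0.0105, 0.0153, 0.0167 and 0.00262). In the authors' own test of the same comparisons, SOCS3-DT had a q-value of 0.0386. The other lncRNAs of these pairs had q-values of 0.143 to 0.836 there and did not pass.

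Tested loci around the members were compared between genotypes, a check chosen after the values were seen. Within 1 Mb of UPK1A-AS1 lay 43 tested loci that are no members and share no interval with it, and their median log2 fold change in SYK-KO against SYK-WT cells was 0.42 with EGF and 0.47 untreated, with 31 and 30 of them called higher. Around ZNF433-AS1 the medians over 52 loci were 0.40 and 0.38, with 43 and 34 called higher. Around IGFL2-AS1 they were -0.37 and -0.22 over 38 loci, with 22 and 17 called lower. LINC01128 (chr1:762971-794826) was lower in SYK-KO cells, with log2 fold changes of -0.39 with EGF and -0.33 untreated (limma adjusted p = 0.0116 and 0.0244), and the medians of its 36 neighbours were -0.31 and -0.29. Its call with EGF ended without SYK-WT EGF replicate 1 or SYK-KO EGF replicate 1 (limma adjusted p = 0.0829 and 0.0695). Untreated it ended without SYK-WT replicate 1, SYK-KO replicate 1 or SYK-KO replicate 2 (limma adjusted p = 0.0765, 0.103 and 0.109), and with only the compared groups in the fit (limma adjusted p = 0.0734), and its change was -0.52 with 0.1 as the added constant. Other members stood apart from theirs: CCDC144NL-AS1 at -1.21 and -1.27 among 9 neighbours with medians of 0.25 and 0.29, LINC01234 at -1.12 and -1.09 among 13 with 0.15 in both conditions, and CRIM1-DT at 1.05 and 0.96 among 11 with -0.17 in both. Of members with at least 5 such neighbours, the median was above 0 for 33 of 46 called higher with EGF and 34 of 49 untreated, and below 0 for 37 of 59 called lower with EGF and 34 of 53 untreated. Among members not called it was above 0 for 92 of 215 with EGF and 99 of 218 untreated, and below 0 for 121 and 116. The part of the surroundings in these differences was not tested.

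MALAT1 and NEAT1 are the nuclear lncRNAs named in the background. Of all tested loci, 20.2% were lower in SYK-KO cells untreated and 21.1% higher with EGF, and 12.1% fell with EGF in SYK-WT cells. MALAT1 (chr11:65265233-65273983) had 13.2 and 12.9 FPKM in SYK-KO EGF, 16.6 and 12.0 in SYK-WT EGF, 13.5 and 10.8 in SYK-KO, and 19.5 and 18.5 in SYK-WT. It was lower in SYK-KO cells untreated (-0.62, SE 0.147, limma adjusted p = 0.0127). This call was lost when SYK-KO replicate 2 was left out (-0.47, limma adjusted p = 0.0857). With EGF in SYK-WT cells its change of -0.40 did not pass (limma adjusted p = 0.0796), but did without SYK-WT EGF replicate 1 (-0.62, limma adjusted p = 0.0343). NEAT1 (chr11:65190269-65213009) had 7.49 and 6.96 FPKM in SYK-KO EGF, 5.76 and 4.86 in SYK-WT EGF, 7.39 and 6.83 in SYK-KO, and 7.67 and 7.92 in SYK-WT. SYK-WT EGF was the low group: NEAT1 fell with EGF in SYK-WT cells (-0.48, limma adjusted p = 0.00756) and was higher in SYK-KO than SYK-WT cells with EGF (0.39, adjusted p = 0.0108). Without SYK-WT EGF replicate 2 both calls ended (-0.38 and 0.28, limma adjusted p = 0.0593 and 0.0819), and without SYK-KO EGF replicate 1 the genotype call did (0.34, limma adjusted p = 0.0723).

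The lists that follow are read against all tested loci, of which 21.1% were higher and 22.5% lower in SYK-KO cells with EGF, and 20.3% and 20.2% untreated. With EGF, 6.67% of them rose and 5.13% fell in SYK-KO cells, and 14.7% and 12.1% in SYK-WT cells. Of 13 genes for paraspeckle proteins, 2 were higher and 4 lower in SYK-KO cells with EGF, and 1 was higher and 6 lower untreated, with list medians of -0.11 and -0.20. SFPQ, a core paraspeckle protein, was lower, with -0.37 and -0.59 (limma adjusted p = 0.0183 and 0.00273), whereas NONO, its binding partner, was higher by 0.34 and 0.27 (adjusted p = 0.00411 and 0.0124). With EGF 0 passed in SYK-KO cells, and in SYK-WT cells 1 rose and 3 fell, among them SFPQ (-0.45, limma adjusted p = 0.0136). Of 17 genes for nuclear RNA decay, 2 were higher and 4 lower in SYK-KO cells with EGF and 0 and 4 untreated. SMG1, a kinase of nonsense-mediated decay, was lower, with -0.55 and -0.58 (limma adjusted p = 0.00352 and 0.00305), and EXOSC10, the nuclear exosome nuclease, likewise, with -0.20 and -0.26 (adjusted p = 0.03 and 0.0117). With EGF, 0 of the 17 passed in SYK-KO cells, and 2 rose in SYK-WT cells.

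Other lncRNAs with names outside the rule were taken as a list of 19 tested, and it and the list of host genes after it are read against the same shares of all loci, which lay between 20.2% and 22.5% in each direction between genotypes. With EGF 1 of them rose and 1 fell in SYK-KO cells, and 2 rose and 1 fell in SYK-WT cells. CYTOR, a cytoplasmic lncRNA, rose in both (0.33 and 0.47, limma adjusted p = 0.0163 and 0.00219). Between genotypes 2 were higher and 5 lower in SYK-KO cells with EGF, and 3 were higher and 4 lower untreated. UCA1, first found in bladder carcinoma, had 466 and 503 FPKM in SYK-KO EGF, 303 and 363 in SYK-WT EGF, 498 and 494 in SYK-KO, and 324 and 324 in SYK-WT. It exceeded every member in level and was higher in SYK-KO cells by 0.55 and 0.61 (limma adjusted p = 0.00252 and 0.00158). TUG1 and NORAD were lower, with -0.34 and -0.35 with EGF, and -0.42 and -0.34 untreated (limma adjusted p = 0.00426, 0.0075, 0.00187 and 0.00968). Of 19 hosts of small nucleolar RNAs, 1 was higher and 2 lower in SYK-KO cells with EGF, 3 and 2 untreated. With EGF 0 passed in SYK-KO cells and 1 rose and 4 fell in SYK-WT cells. SNHG7 had 94.2 and 86.8 FPKM in SYK-KO EGF, 48.2 and 48.6 in SYK-WT EGF, 103 and 96.7 in SYK-KO, and 62.8 and 81.4 in SYK-WT, at a locus listed together with SNORA17A and SNORA17B.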

How the data were processed

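The authors deposited 1 table of FPKM values per locus, made with TopHat, Cufflinks and Cuffdiff 2.2.1.3 on hg19 per the submitters' processing notes, with q-values of 3 comparisons by the authors' own test, per the file headers. A listed interval is a bundle that several loci can share. Counts were not analysed here, so limma 3.58.1 (R 4.3.3, trended prior) took the place of a planned count test. It was fitted to log2(FPKM + 1) of the 12112 loci at 1 FPKM or more in at least 2 libraries, with 4 group means and 5 contrasts. The residual degrees of freedom were 4 (prior 3.87), and p-values were adjusted by Benjamini-Hochberg over all 12112 loci at a threshold of 0.05. Tables were handled with python 3.11.15, pandas 2.3.3 and numpy 2.4.6, figures with matplotlib 3.10.9. The fit was tested on simulated data. FPKM hold no read counts, so the stated depth is an estimate.

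The members and lists were chosen with earlier results of these data known. Named were, per comparison, up to 8 called members with the largest rise and 8 with the largest fall whose library pairs all agreed in direction, the 10 of highest mean, 3 on either side of the limit, 7 symbols of interest, the loci sharing their intervals and up to 4 genes of each list. A member that this rule names is not reported here. Other names complete small counts and were chosen after their values were seen. Symbols came from RefSeq for 360 members and from GENCODE for 2. The alternatives were another added constant, no filter, equal library medians, a fit to the groups compared alone, a replicate block and each library left out.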

Additional observations from a re-analysis of the deposited data

Results flagged for a closer look

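For 4 members the genotype difference had opposite signs with and without EGF in every pair of libraries. No share over all tested loci stands beside this count, so it cannot be read as a result about the members. In each of the 4 the difference between both conditions was tested and did not pass (limma, adjusted over all tested loci). For LHX1-DT the log2 fold change in SYK-KO against SYK-WT cells was -0.33 with EGF and 0.30 untreated, a difference of -0.63 (adjusted p = 0.313). For LINC01111 it was -0.19 with EGF and 0.22 untreated, a difference of -0.41 (limma adjusted p = 0.537). For SLC38A4-AS1 it was -0.22 with EGF and 0.27 untreated, a difference of -0.49 (limma adjusted p = 0.485). For NEAT1 it was 0.39 with EGF and -0.12 untreated, a difference of 0.50 (limma adjusted p = 0.35).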

How the results depend on the processing

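Counts of called members were 43 and 81 for EGF in SYK-KO and SYK-WT cells, and 120 and 119 for SYK-KO against SYK-WT with EGF and untreated. Without the filter on low values they were 23 and 52 for EGF. With only the groups compared in the fit they were 75 and 34 for EGF and 77 untreated. Leaving out 1 library gave 6 to 75 and 28 to 123 for EGF, 72 to 156 with EGF, 68 to 140 untreated, and 0 to 20 for the difference of the responses. A lone library was then assumed to vary like the other groups. The added constant of 0.1, equal medians and the remaining settings kept these counts within 1.5 times. Fold changes of low members moved by more with 0.1, as for GATA2-AS1 (-2.35 untreated, against -1.12). Among the named members' values 923 kept direction and side of the threshold, 97 lost the call, 3 gained it and 4 reversed. MALAT1 with EGF in SYK-KO cells was 0.11, and -0.04 to 0.26 with a library left out. MALAT1 in SYK-KO against SYK-WT with EGF was -0.11, and -0.33 to 0.11. NEAT1 with EGF in SYK-KO cells was 0.02, and -0.03 to 0.07, with -0.02 without SYK-KO EGF replicate 1. None of these 3 was called, and the cause of the changes was not tested.

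With the replicate number as a block, 45 and 89 members were called for EGF in SYK-KO and SYK-WT cells, 130 and 135 between genotypes with EGF and untreated, and 0 for the difference. MALAT1 with EGF in SYK-WT cells passed with the block (-0.40, limma adjusted p = 0.0319). Same-numbered libraries of SYK-KO EGF, SYK-KO and SYK-WT correlated at 0.161 to 0.27, and those of SYK-WT EGF with the others at -0.381 to -0.161. Not every pair was over 0.1, so the number was not taken as a pairing. With 2 libraries a group, small changes of low members could not be resolved.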
